A study of Mus musculus with 24 samples.

Results

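The Serpinb9 family of the mouse was followed through pregnancy at the maternal-fetal interface (MFI), beside Gzmb, the gene of granzyme B. The members were taken by gene name and are Serpinb9, Serpinb9b, Serpinb9c, Serpinb9d, Serpinb9e, Serpinb9f and Serpinb9g, 7 of the 55401 genes of the count table. All 7 passed the filter on low counts in each comparison. Tissue labelled as MFI, where the maternal decidua meets the fetal placenta, was profiled by bulk RNA-seq in 8 groups of 3 libraries. Wild-type (WT) and C1qtnf6-KO mice were each collected at 4 stages of gestation, gd10.5 and gd14.5, then gd16.5, and last gd19.5. The study asked how the MFI changes without C1qtnf6, which encodes the secreted protein CTRP6. The study describes the KO mice as homozygous for a CRISPR deletion of C1qtnf6 exons, on the C57BL/6JCya strain. Its methods speak of RNA from placentae where the labels name the MFI, so how much maternal decidua the samples hold is not given in the sources used here. The labels name no separate animals or litters, so each p-value measures only the spread between these libraries.

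Serpins are protease inhibitors that present a reactive loop as bait. The protease cleaves the loop and is trapped in an irreversible complex. Clade B serpins lack a signal peptide and act inside cells. Serpinb9, the mouse counterpart of human PI-9, inhibits granzyme B, the serine protease that cytotoxic lymphocytes and natural killer (NK) cells store in granules and deliver to target cells together with perforin. Cells that make Serpinb9 are shielded from granzyme B, and killer cells use it against leakage of their own granules. Serpinb9b, also called SPI-CI, is known as an inhibitor of granzyme M. The cluster was expanded by duplication in rodents, and uterine NK cells of the mouse are rich in granzymes. The files hold RNA counts, so the inhibition named in the family's description was not measured here, and the target proteases of Serpinb9c to Serpinb9g are not given in the sources used here.

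The 7 genes lie in 493 kb of chromosome 13 of GRCm38, from 33003250 to 33496004, an interval that holds 14 annotated genes. From one end to the other they are Serpinb9 (ENSMUSG00000045827, 33003250 to 33017957), Serpinb9b (ENSMUSG00000021403, 33027416 to 33041884), Serpinb9c (ENSMUSG00000021404, 33149275 to 33159742), Serpinb9d (ENSMUSG00000054266, 33192959 to 33203129), Serpinb9e (ENSMUSG00000062342, 33249612 to 33260850), Serpinb9f (ENSMUSG00000038327, 33324077 to 33335370) and Serpinb9g (ENSMUSG00000057726, 33484790 to 33496004). Serpinb9c is on the minus strand and the others are on the plus strand. Serpinb9h, a further gene of the interval that is not among the members, had 0 to 8 counts per library. Gzmb lies on another chromosome, 14 (ENSMUSG00000015437, 56258838 to 56262260, minus strand).

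The DNA before the RefSeq starts of the members, shown for the runs of bases that Serpinb9 shares with Serpinb9b and that the other 5 share, was read from the RefSeq promoter table of GRCm38.p6, which matched all 7. Each line gives the 130 bases that end at the base before a RefSeq start, 5′ to 3′ on the gene's own strand, and none of these bases is exonic. The RefSeq start of Serpinb9 lies 1291 bases inside the annotated span given above, so its window lies within that span. Serpinb9c has a second RefSeq window, which starts inside the gene and does not hold the shared run, and it is not shown. The windows are chr13:33004411-33004540 (plus), chr13:33027284-33027413 (plus), chr13:33159755-33159884 (minus), chr13:33192825-33192954 (plus), chr13:33249478-33249607 (plus), chr13:33323947-33324076 (plus) and chr13:33484660-33484789 (plus). Capitals mark the longest run shared by Serpinb9 and Serpinb9b in the first 2 lines, and the longest run shared by Serpinb9c to Serpinb9g in the other 5.
Serpinb9: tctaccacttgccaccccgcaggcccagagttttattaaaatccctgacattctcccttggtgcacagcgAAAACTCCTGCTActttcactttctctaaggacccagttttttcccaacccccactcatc
Serpinb9b: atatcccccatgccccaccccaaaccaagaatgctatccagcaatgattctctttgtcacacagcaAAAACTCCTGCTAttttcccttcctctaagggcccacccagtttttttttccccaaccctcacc
Serpinb9c: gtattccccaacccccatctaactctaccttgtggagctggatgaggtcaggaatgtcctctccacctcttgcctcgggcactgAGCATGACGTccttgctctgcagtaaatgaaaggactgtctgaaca
Serpinb9d: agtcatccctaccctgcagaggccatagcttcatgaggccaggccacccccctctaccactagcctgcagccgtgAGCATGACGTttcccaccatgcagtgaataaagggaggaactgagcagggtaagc
Serpinb9e: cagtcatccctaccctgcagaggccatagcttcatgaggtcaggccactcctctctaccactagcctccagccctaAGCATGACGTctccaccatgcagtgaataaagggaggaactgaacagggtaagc
Serpinb9f: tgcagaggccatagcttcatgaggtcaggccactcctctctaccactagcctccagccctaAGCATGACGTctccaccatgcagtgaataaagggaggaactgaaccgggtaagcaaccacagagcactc
Serpinb9g: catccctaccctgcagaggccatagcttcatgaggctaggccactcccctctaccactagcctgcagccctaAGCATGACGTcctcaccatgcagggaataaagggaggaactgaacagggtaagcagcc
The 13-base run AAAACTCCTGCTA of the first pair was found in 3 of 32851 RefSeq windows of 250 bases, the third being that of Txk. The 10-base run AGCATGACGT of the other 5 was found in 12 of them. Serpinb9d, Serpinb9e, Serpinb9f and Serpinb9g were 90.6 to 99.1% identical to each other over the 250-base windows, with Serpinb9e and Serpinb9f the closest pair. Serpinb9c was 69.8 to 71.4% identical to these 4, and Serpinb9 and Serpinb9b were 68.4% identical to each other over 225 aligned bases. By this measure Serpinb9 was no closer to Serpinb9b than to some of the others, at 76.5% over 119 aligned bases with Serpinb9c and 70.0% over 110 with Serpinb9d. The letters TGACGTC (reverse GACGTCA, both strands searched), which overlap the capitals, stood in Serpinb9c, Serpinb9e, Serpinb9f and Serpinb9g and not in Serpinb9d, and in 2.78% of all windows. TATAAA and GATAAG, held on either strand by 12.4% and 6.55% of all windows, were in none of the 7. These letters were chosen with the sequences in view, and each match is a description of the window only.

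The likeness of the copies also limits the counts. The transcripts of Serpinb9d, Serpinb9e, Serpinb9f and Serpinb9g were 94.2 to 97.5% identical to each other, and that of Serpinb9 was 78.3 to 81.2% identical to the other members. Of all 150-base windows of the longest annotated transcript, 38.6% in Serpinb9f, 30.9% in Serpinb9g and 14.3% in Serpinb9c also occur in another gene, against 2.03% in Serpinb9e, 1.18% in Serpinb9d and 0 in Serpinb9 and Serpinb9b. A read pair with both mates in such stretches can map to several places, and default counting drops such pairs. The levels of Serpinb9f, Serpinb9g and Serpinb9c are therefore uncertain and can be too low. The share of reads lost was not measured. The antisense gene Gm36099 overlaps 278 exon bases, or 8.30%, of Serpinb9b, and with default counting, which ignores strand, reads of the pair cannot be told apart there. Gm36099 had 3152 counts in all 24 libraries against 312350 for Serpinb9b.

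The genotype labels were checked first. C1qtnf6 held 150.0, 156 and 168 CPM, read counts scaled to the size of the library, in the WT libraries of gd10.5 and 1.01, 0.761 and 0.968 in the KO libraries. The WT values were 109, 122 and 129.8 on gd14.5, then 91.1, 78.6 and 98.4 on gd16.5, then 64.7, 68.2 and 68.2 on gd19.5, and the KO values were 0.377, 0.412 and 0.459, then 0.647, 0.462 and 2.05, then 0.742, 0.852 and 0.0340, the last of these from 1 count. It was lower in KO at each stage, by log2 differences of -7.42, -8.17, -6.45 and -7.00 in order of stage. Total counts were 20975717 to 37383108 per library, so that a floor of 3 counts, which covers counting error only, is 0.0803 to 0.143 CPM. KO replicate 2 of gd10.5 stood apart from the other 5 libraries of that stage. Its summed CPM over spongiotrophoblast and glycogen cell markers was 11961 against 922 to 2205, and its NK cell marker sum was 186 against 281 to 378. The values it bears on most are given with and without it, a choice made after the data were seen. Yolk sac endoderm markers varied within groups, from 152 to 16183 CPM among the KO libraries of gd16.5.

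Each of the 7 members was well above the floor in all 24 libraries. The lowest count of any member in any library was 941, for Serpinb9d, and the highest was 39591, for Serpinb9e. Gzmb had between 83 and 15066 counts. The highest library exceeded the lowest 2.49-fold for Serpinb9b and 5.80-fold for Serpinb9e, with 2.98 to 3.28-fold for the other 5, and 102-fold for Gzmb. Summed over the 7 members, the mean level was 2027 ± 216 CPM (SD, n = 3, as for the others) in WT gd10.5, then 2551 ± 313 in WT gd14.5, then 1295 ± 130.3 in WT gd16.5 and last 1266 ± 208 in WT gd19.5. The KO groups gave 1934 ± 664, 2272 ± 209, 1424 ± 136 and 1003 ± 79.7 CPM in the same order. The highest mean of each genotype was at gd14.5, with libraries that overlapped those of gd10.5. Within KO gd10.5 replicate 2 gave 2675 CPM and the others 1737 and 1392, with a mean of 1564 without it, and without it the KO libraries of gd10.5 lay below those of gd14.5.

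On the scale of CPM per kb of gene length, which allows levels of different genes to be set side by side, Serpinb9e had the highest mean and Serpinb9 the lowest in all 8 groups. At WT gd10.5 the mean levels were 325 ± 55.0 CPM per kb for Serpinb9e (SD, n = 3, as for the others), 185 ± 31.4 for Serpinb9b, 111 ± 8.82 for Serpinb9g, 85.4 ± 9.50 for Serpinb9f, 83.8 ± 9.35 for Serpinb9d, 66.5 ± 1.97 for Serpinb9c and 47.3 ± 10.2 for Serpinb9. Serpinb9f and Serpinb9d, neighbours in this order, overlapped. At WT gd14.5 Serpinb9e reached 519 ± 80.5 CPM per kb and was 16.1-fold above Serpinb9 at 32.2 ± 2.28. Serpinb9g and Serpinb9b were next, at 180.3 ± 27.1 and 165 ± 16.8 CPM per kb, and overlapped. By WT gd19.5 the spread had narrowed to 5.13-fold, with Serpinb9e at 144 ± 25.9 CPM per kb and Serpinb9b at 117 ± 16.9, and the libraries of this pair overlapped. The KO groups gave 7.35, 14.3, 7.68 and 5.03-fold between Serpinb9e and Serpinb9 from gd10.5 to gd19.5. Without replicate 2 the first of these was 4.12-fold.

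**Figure D1:**
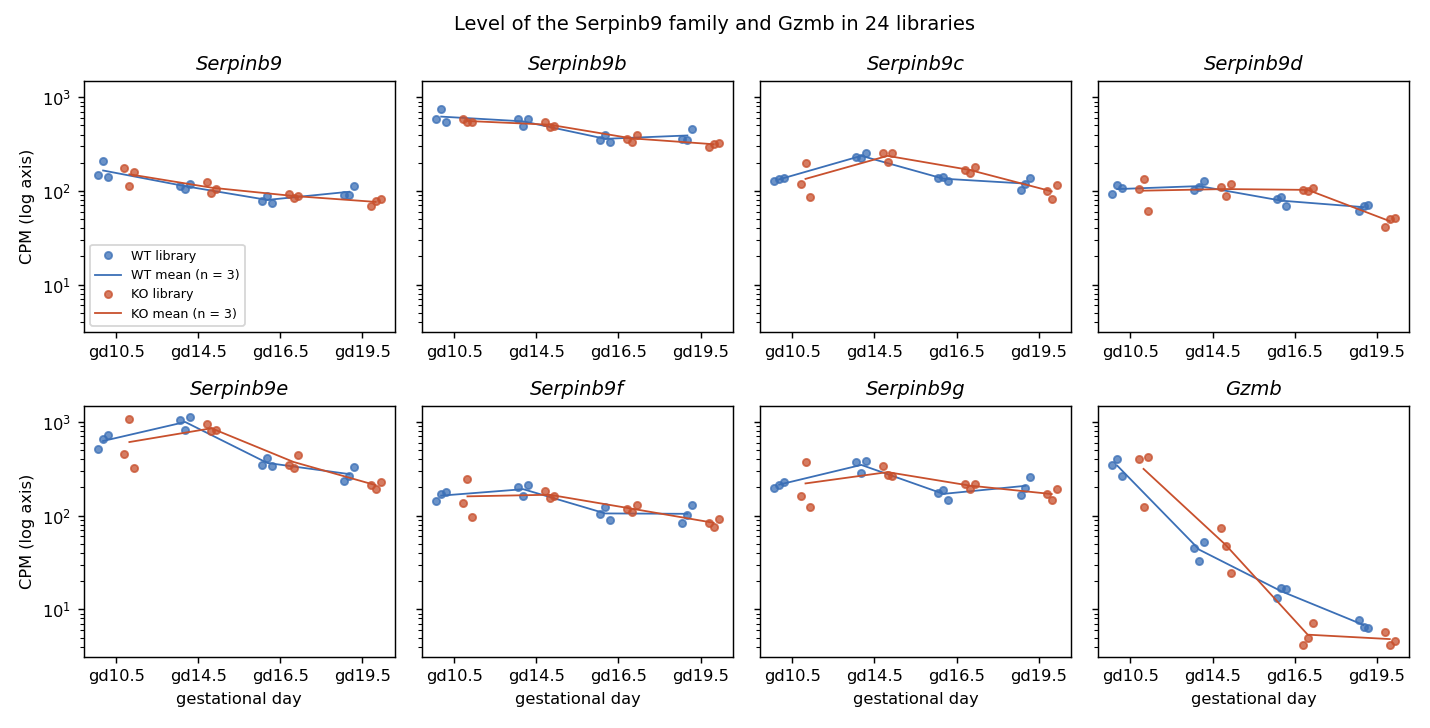
Level of each member and of Gzmb in all 24 libraries, in CPM on a log axis, against gestation day. Points are libraries (WT blue, KO orange) and lines join the 3-library means. Gzmb spans 102-fold between its lowest and highest library, against 2.49 to 5.80-fold for the members.

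Gzmb, the target of Serpinb9, fell through pregnancy. The WT libraries held 350.4, 407 and 266 CPM on gd10.5, then 45.0, 32.8 and 51.9 on gd14.5, then 13.1, 17.0 and 16.6 on gd16.5 and last 7.72, 6.42 and 6.30 on gd19.5. The KO libraries held 398, 125 and 422 CPM on gd10.5, then 74.1, 47.5 and 24.5 on gd14.5, then 4.13, 4.90 and 7.07 on gd16.5 and last 5.72, 4.12 and 4.60 on gd19.5. At gd16.5 all 3 KO values were below all 3 WT values. In WT the log2 change was -2.98 ± 0.18 (SE, adjusted p = 6.61e-08) from gd10.5 to gd14.5, -1.47 ± 0.19 (SE, adjusted p = 0.000164) to gd16.5 and -1.18 ± 0.20 (SE, adjusted p = 0.00467) to gd19.5. In KO it was -2.70 ± 0.46 (SE, adjusted p = 0.00106), -3.18 ± 0.50 (SE, adjusted p = 0.0023) and -0.16 ± 0.52 (SE, adjusted p = 0.899) over the same steps, so that the last step did not pass the test in KO. Without KO replicate 2 of gd10.5 the first KO step was -3.07 ± 0.33 (SE, adjusted p = 1.63e-05). All adjusted p-values are from the quasi-likelihood test of edgeR with Benjamini-Hochberg adjustment over all genes of the fit, and a call required an adjusted p below 0.05 together with a log2 change beyond 1 in either direction. In whole tissue, fewer cells of a type and less RNA per cell cannot be told apart.

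Serpinb9, the inhibitor of granzyme B, was highest at gd10.5. The WT libraries held 148, 206 and 142 CPM on gd10.5, then 114, 104 and 119.6 on gd14.5, then 78.1, 88.0 and 74.6 on gd16.5 and last 90.9, 91.0 and 112 on gd19.5. The KO libraries held 177, 113 and 161 CPM on gd10.5, then 125, 94.3 and 106 on gd14.5, then 93.5, 83.5 and 88.1 on gd16.5 and last 69.4, 78.4 and 81.6 on gd19.5. In WT every library of gd14.5 was below every library of gd10.5, every library of gd16.5 was below those of gd14.5, and those of gd19.5 were above those of gd16.5. The WT log2 changes were -0.55 ± 0.14 (SE, adjusted p = 0.0037), -0.48 ± 0.14 (SE, adjusted p = 0.023) and 0.29 ± 0.14 (SE, adjusted p = 0.208) over the 3 steps. The first 2 steps passed the adjusted p with changes too small for a call. In KO the first step gave -0.48 ± 0.15 (SE, adjusted p = 0.0243), and the later steps, at -0.29 and -0.21, did not pass. Without KO replicate 2 of gd10.5 that first step was -0.64 ± 0.11 (SE, adjusted p = 0.000551).

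Serpinb9b, the granzyme M inhibitor, showed no change past the test up to gd14.5. The WT libraries held 583, 740.2 and 541 CPM on gd10.5, then 581, 488 and 589.8 on gd14.5, then 346, 397 and 337 on gd16.5 and last 363, 354 and 456 on gd19.5. The KO libraries held 586, 547 and 542 CPM on gd10.5, then 551, 485 and 493 on gd14.5, then 359.7, 334 and 399 on gd16.5 and last 297, 319.9 and 329 on gd19.5. Its first step was -0.16 ± 0.14 (SE, adjusted p = 0.333) in WT and -0.14 ± 0.10 (SE, adjusted p = 0.274) in KO, and the groups overlapped. The KO value was -0.15 ± 0.10 (SE, adjusted p = 0.235) without KO replicate 2 of gd10.5. From gd14.5 to gd16.5 it fell in both genotypes, by a log2 change of -0.61 ± 0.14 (SE, adjusted p = 0.00676) in WT and -0.48 ± 0.10 (SE, adjusted p = 0.00811) in KO. The last step did not pass in either (0.12 and -0.21).

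Serpinb9c, Serpinb9e and Serpinb9g rose to gd14.5 in WT. For Serpinb9c the WT libraries held 129, 134 and 136 CPM on gd10.5, then 231, 226 and 254 on gd14.5, then 136, 140.0 and 129 on gd16.5 and last 102, 120.1 and 138 on gd19.5. Its KO libraries held 119, 198 and 86.5 CPM on gd10.5, then 254, 203 and 254 on gd14.5, then 168, 157 and 178 on gd16.5 and last 98.7, 82.6 and 116 on gd19.5. Every WT library of gd14.5 was above every one of gd10.5, with a log2 change of 0.84 ± 0.10 (SE, adjusted p = 1.08e-05), and the next step was -0.81 ± 0.10 (SE, adjusted p = 0.000116). In KO the first step was 0.81 ± 0.24 (SE, adjusted p = 0.0175), and the next steps, at -0.50 and -0.76, did not pass.

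Serpinb9e, the most abundant member per length, had the widest course. Its WT libraries held 509.6, 651 and 717 CPM on gd10.5, then 1042, 825 and 1125 on gd14.5, then 343, 415 and 336 on gd16.5 and last 237, 262 and 333 on gd19.5. Its KO libraries held 449, 1060.5 and 319 CPM on gd10.5, then 939.6, 803 and 821 on gd14.5, then 349, 323 and 449 on gd16.5 and last 209.6, 194 and 231 on gd19.5. The WT log2 change was 0.68 ± 0.16 (SE, adjusted p = 0.00322) to gd14.5, -1.45 ± 0.17 (SE, adjusted p = 8.53e-05) to gd16.5 and -0.39 ± 0.16 (SE, adjusted p = 0.165) to gd19.5, and the groups did not overlap at any of these steps. In KO the step to gd16.5 was -1.19 ± 0.34 (SE, adjusted p = 0.0362), and the steps before and after, 0.48 ± 0.34 (SE, adjusted p = 0.265) and -0.82 ± 0.34 (SE, adjusted p = 0.227), did not pass. The call of the KO step to gd16.5 was kept without KO replicate 3 of gd16.5 and lost without any other of the 6 libraries. The KO libraries of gd10.5 enclosed those of gd14.5, since replicate 2 held 1060.5 CPM and replicate 3 held 319.

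Serpinb9g followed a similar path at a lower level. The WT libraries held 197, 215 and 231 CPM on gd10.5, then 377, 287 and 378 on gd14.5, then 176, 189 and 147 on gd16.5 and last 165, 199 and 259 on gd19.5. The KO libraries held 162, 374 and 125 CPM on gd10.5, then 339.9, 270.3 and 263 on gd14.5, then 218, 191 and 218 on gd16.5 and last 169, 146 and 195 on gd19.5. The WT steps were 0.70 ± 0.16 (SE, adjusted p = 0.0022), -1.02 ± 0.16 (SE, adjusted p = 0.000715) and 0.29 ± 0.16 (SE, adjusted p = 0.289) on the log2 scale. The first 2 were free of overlap between libraries. The WT call of the step to gd16.5 was lost, with changes just short of the fold limit (-0.95, -0.96 and -0.92), without WT replicate 1 or 3 of gd14.5 or WT replicate 3 of gd16.5. In KO no step passed (0.40, -0.48 and -0.30).

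Serpinb9d and Serpinb9f did not change detectably to gd14.5. Serpinb9d held 91.7, 114 and 108 CPM on gd10.5, then 103, 109 and 127 on gd14.5, then 81.6, 85.6 and 69.2 on gd16.5 and last 61.3, 68.8 and 71.7 on gd19.5 in WT. In KO it held 106, 135 and 61.7 CPM on gd10.5, then 109, 87.7 and 118 on gd14.5, then 101, 99.96 and 107 on gd16.5 and last 41.1, 50.4 and 51.4 on gd19.5. Its WT step to gd16.5, -0.51 ± 0.11 (SE, adjusted p = 0.00519), passed without reaching a call. In KO its only passing step came later, from gd16.5 to gd19.5, at -1.11 ± 0.23 (SE, adjusted p = 0.0468). All 3 KO libraries of gd19.5 were below all 3 of gd16.5. This call was lost when any 1 of the 6 libraries was left out.

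For Serpinb9f the WT libraries held 143, 169 and 178 CPM on gd10.5, then 200.1, 163 and 211 on gd14.5, then 103, 123 and 89.6 on gd16.5 and last 82.6, 101 and 129.8 on gd19.5. The KO libraries held 137, 248 and 96.5 CPM on gd10.5, then 185, 154 and 161 on gd14.5, then 118, 109 and 129 on gd16.5 and last 83.1, 76.4 and 91.8 on gd19.5. The step to gd16.5 was -0.85 ± 0.16 (SE, adjusted p = 0.00286) in WT and -0.49 ± 0.26 (SE, adjusted p = 0.214) in KO. With all libraries it was the 1 step of this gene that passed, and it did so in WT.

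In WT the step from gd14.5 to gd16.5 was the one in which all members passed the test in the same direction. All 7 members passed the adjusted p and all were lower, where 9.91% of all genes tested passed and were lower (22.4% in either direction), a limit without a fold that was added after the data were seen. The WT libraries of gd16.5 were wholly below those of gd14.5 for all 7, beside 20.5% of all genes. Of the members, Serpinb9e and Serpinb9g were called, 2 of 7 beside 5.6% of all genes called and 2.55% called lower. The median log2 change of the 7 was -0.81, against -0.01 for all genes. From gd10.5 to gd14.5 in WT, 0 of 7 were called beside 22.2% of all genes, and 4 passed the adjusted p (Serpinb9c, Serpinb9e and Serpinb9g higher, Serpinb9 lower) beside 55.9%, so this share was near the background. The libraries of these 4 did not overlap between gd10.5 and gd14.5, beside 63.5% of all genes, which is near the background too. From gd16.5 to gd19.5 in WT, 0 of 7 were called beside 2.14%, and 0 passed the adjusted p beside 7.97%. The libraries of Serpinb9 and Serpinb9e did not overlap over that step, 2 of 7 beside 30.2% of all genes. At an unadjusted p under 0.05 the edgeR counts of members were 4, 7 and 1 over the 3 WT steps, beside 60.8, 35.1 and 24% of all genes. DESeq2 called 0, 2 and 0 of the 7, beside 18, 4.79 and 2.17% of the genes to which it gave an adjusted p.

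In KO 1 of 7 members, Serpinb9e, was called from gd14.5 to gd16.5 beside 7.53% of all genes, and 2, Serpinb9b and Serpinb9e, passed the adjusted p and were lower beside 8.1%. From gd10.5 to gd14.5, 0 of 7 were called beside 18.7%, and 2 passed the adjusted p beside 46.1%. The KO libraries of gd16.5 were wholly below those of gd14.5 for 6 of 7, beside 23.1% of all genes. From gd16.5 to gd19.5, 1 of 7, Serpinb9d, was called beside 0.693% of all genes, and it alone passed the adjusted p, beside 1.24%. All 7 were nevertheless below 0 over that step, with the libraries of 6 wholly lower at gd19.5, beside 13.7% of all genes. The median log2 change of the 7 over the 3 KO steps was 0.05, -0.48 and -0.50, against -0.00, -0.00 and -0.00 for all genes. A step that passed in one genotype and not in the other is not shown to differ between them. The tests of that difference are given with the genotype comparison.

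The first KO step depended on single libraries. With 1 of its 6 libraries left out at a time, 0 to 5 members passed the adjusted p, 0 of them without KO replicate 1 of gd10.5 or KO replicate 3 of gd14.5 and 5 without KO replicate 2 of gd10.5. Without this last library 56.3% of all genes passed the adjusted p. Then 3 members were called higher at gd14.5, beside 12.2% of all genes called higher, Serpinb9c at 1.20 ± 0.17 (SE, adjusted p = 0.000106), Serpinb9e at 1.16 ± 0.17 (SE, adjusted p = 0.000171) and Serpinb9g at 1.02 ± 0.16 (SE, adjusted p = 0.000217). Serpinb9f at 0.52 ± 0.14 (SE, adjusted p = 0.0094) then passed the adjusted p too, and Serpinb9d at 0.32 ± 0.19 (SE, adjusted p = 0.174) did not. In that library Serpinb9c, Serpinb9d, Serpinb9e, Serpinb9f and Serpinb9g held 198, 135, 1060.5, 248 and 374 CPM and were the highest of the 6 libraries of gd10.5. Serpinb9, at 113 CPM, and Gzmb, at 125, were the lowest of the 6, and Serpinb9b, at 547, was within the range of the others. Serpinb9c to Serpinb9g stood on one side in this library, Serpinb9 on the other and Serpinb9b on neither. Spongiotrophoblast and glycogen cell markers were at 11961 CPM there. Decidua markers were at 2106 CPM, against 3326 to 10964 in the other KO libraries of gd10.5. The part of cell makeup in this pattern was not tested.

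**Figure D2:**
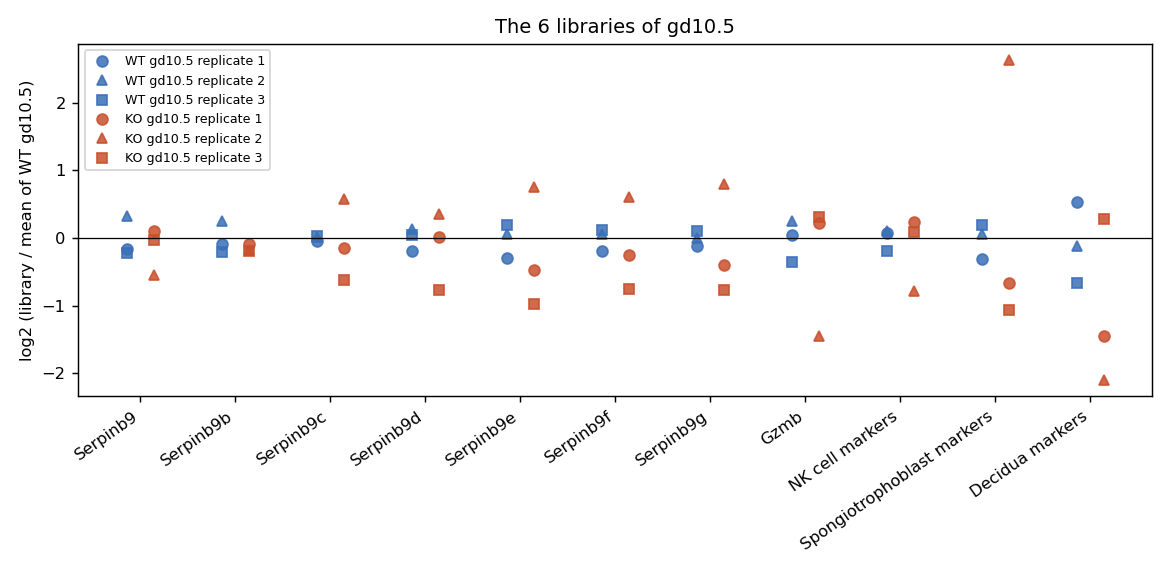
The 6 libraries of gd10.5, as log2 of the level over the mean of the 3 WT libraries, for each member, Gzmb and the summed CPM of NK cell, spongiotrophoblast and decidua markers (WT blue, KO orange). KO replicate 2 is highest for Serpinb9c to Serpinb9g and for the spongiotrophoblast markers, and lowest for Serpinb9, Gzmb and the NK cell markers.

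Marker sums of other cell types moved with stage as well. Summed spongiotrophoblast and glycogen cell markers were 922 to 2205 CPM at gd10.5 apart from that library, and 29798 to 32059 in WT and 25698 to 30979 in KO at gd14.5. From gd14.5 to gd16.5, the step in which the WT members were lower, they went to 27783 to 38942 CPM in WT and 46693 to 50809 in KO. Trophoblast giant cell markers went from 12511 to 13187 to 16640.1 to 23769 CPM in WT, with no overlap, and from 10942 to 13590.2 to 24958 to 29156 in KO. In WT 1 of these 5 markers was called higher over that step, Ctsq at 1.51, beside 5.6% of all genes called in either direction. Of the 9 NK cell markers, Il2rb and Itga2 made 83.0 to 99.0% of the sum. The other 7 summed to 37.3 to 51.6 CPM in WT gd10.5, to at most 9.85 at gd14.5 and to 1.83 to 2.31 in WT gd19.5. T cell markers summed to 0.547 to 1.80 CPM over all libraries, and mast cell markers to 2.94 to 7.91, with Mcpt4 at 0 in most libraries. The part of these cells in the course of the members was not tested.

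**Figure D3:**
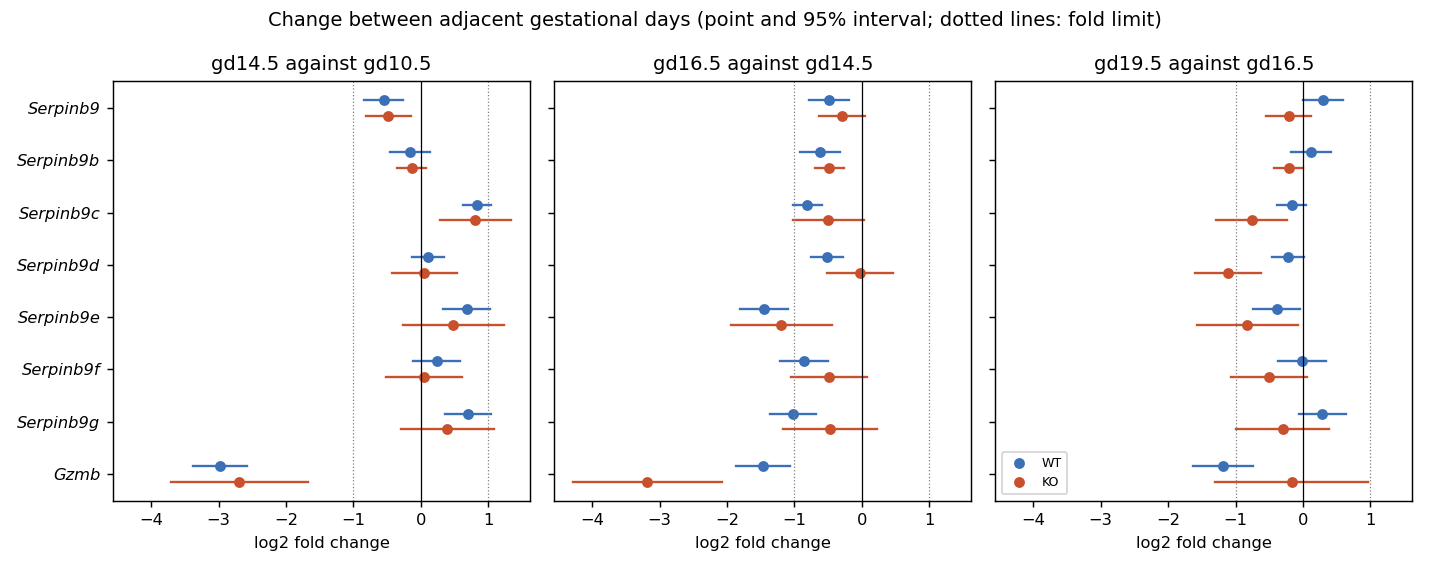
Log2 fold change of each member and of Gzmb over the 3 steps between adjacent stages, in WT (blue) and KO (orange), with 95% confidence intervals of the edgeR fit. In WT all 7 members lie below 0 in the step from gd14.5 to gd16.5, while Serpinb9c, Serpinb9e and Serpinb9g lie above 0 in the step before.

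The members were then compared with Gzmb itself, by fitting each gene with the Gzmb count of the library in place of its size. The test asks whether the ratio of a gene to Gzmb changed. The error of Gzmb enters every gene alike, so the members are not independent here. From gd10.5 to gd14.5 in WT, all 7 rose relative to Gzmb, by log2 changes of 2.45 to 3.81, where 96.1% of all genes were called higher. The members' share is near that background. In KO all 7 were called higher as well, by 2.20 to 3.11, beside 92.4% of all genes, and by 2.68 to 4.57 without replicate 2 of gd10.5.

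From gd14.5 to gd16.5 in WT none of the 7 was called relative to Gzmb, where 86.9% of all genes were called higher. With no fold limit 5 of 7 passed the adjusted p and were higher, beside 91.9% of all genes. The log2 changes of the ratio were 0.97 for Serpinb9, 0.84 for Serpinb9b, 0.64 for Serpinb9c, 0.94 for Serpinb9d, 0.02 for Serpinb9e, 0.61 for Serpinb9f and 0.45 for Serpinb9g. For Serpinb9e the 95% interval was -0.50 to 0.54, so this gene and Gzmb fell by amounts that could not be told apart. The same step in KO gave 7 of 7 called higher, by 1.76 to 2.88, beside 98.3% of all genes. From gd16.5 to gd19.5 in WT 5 of 7 were called higher, beside 73.8% of all genes, with changes of 0.81 to 1.48 over the 7. With 1 library left out at a time the called members were 0 to 2 in the former WT step, 2 without WT replicate 2 of gd14.5 or WT replicate 3 of gd16.5, and 3 to 6 in the latter, 3 without WT replicate 3 of gd19.5. In KO 0 of 7 were called over that step, beside 0.839% of all genes. The shares of all genes with a library left out are not given here.

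Per gene length, the ratio of Serpinb9 to Gzmb was 0.173 to 0.220 in the WT libraries of gd10.5 and 4.83 to 7.32 in those of gd19.5. The inhibitor's RNA was below that of its target in every WT library of gd10.5 and above it in every one of gd19.5. For Serpinb9e the ratio per length was 16.2 to 18.8 at WT gd14.5, 15.1 to 19.6 at WT gd16.5 and 47.3 to 62.8 at KO gd16.5. The first 2 of these ranges overlapped and the last lay wholly above both. RNA levels of an inhibitor and a protease do not give the ratio of their proteins.

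**Figure D4:**
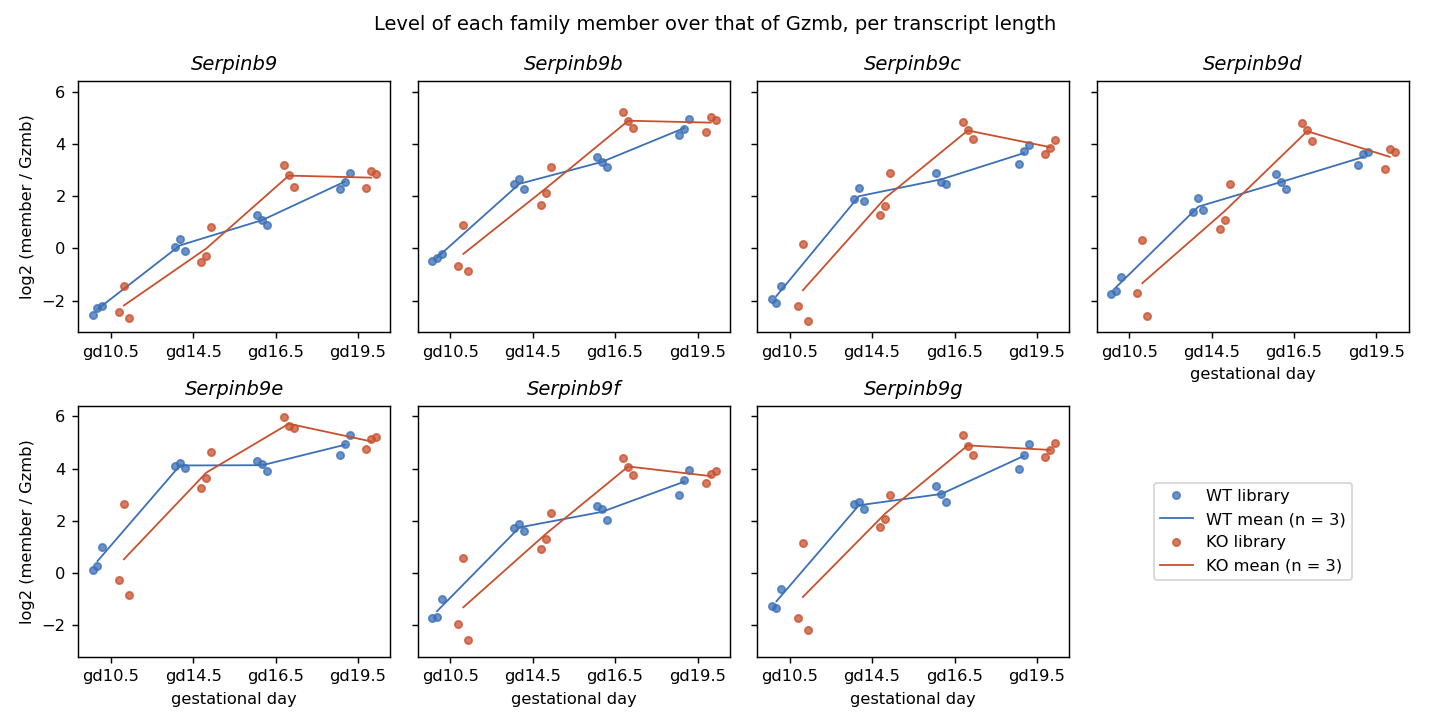
Ratio of each member to Gzmb, as log2 of the quotient of their CPM per kb, in every library by gestation day (WT blue, KO orange). For each member the median ratio of a genotype is lowest at gd10.5, and at gd16.5 the KO libraries lie above the WT libraries for each member.

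KO was compared with WT at each stage to ask whether the family changes without C1qtnf6. No member was called at any stage, 0 of 7 beside 0.00572% of all genes called on gd10.5, then 0.0166% on gd14.5, then 0.00586% on gd16.5, and last 0.023% on gd19.5. DESeq2 also called 0 of 7 at each stage. The shares given here are those of edgeR. The study, with DESeq2 at the same limits, reported more genes at gd16.5 than edgeR called here. The log2 differences of the 7 lay between -0.15 and 0.04 on gd10.5, then between -0.26 and -0.00 on gd14.5. They lay between 0.03 and 0.39 on gd16.5, then between -0.52 and -0.31 on gd19.5. Their medians were -0.03, -0.12, 0.18 and -0.35, against 0.01, -0.00, 0.01 and -0.01 for all genes tested. Without replicate 2, the range at gd10.5 was -0.70 to 0.04, with Serpinb9e at -0.70 ± 0.20 (SE, adjusted p = 0.999) and Serpinb9g at -0.57 ± 0.14 (SE, adjusted p = 0.999). At an unadjusted p under 0.05 there were then 4 members, Serpinb9c, Serpinb9e, Serpinb9f and Serpinb9g, all lower, beside 2.38% of all genes lower, against 0 with that library, beside 0.801% of all genes in either direction.

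At gd16.5, where the Gzmb values were lower in KO, the members stood at or above WT. Gzmb differed by -1.52 ± 0.21 (SE, adjusted p = 0.18) and the perforin gene Prf1 by -1.84 ± 0.27 (SE, adjusted p = 0.18) on the log2 scale. Neither passed the edgeR test used here, with all KO libraries below all WT libraries for Gzmb. The study itself reported both genes as lower in KO at gd16.5 with DESeq2. It also reported lower levels of both by RT-qPCR and of their proteins by immunoblotting. By flow cytometry it found fewer decidual NK cells in KO across several stages. In the NK cells it purified, RT-qPCR gave lower Prf1 and Gzmb in KO. The differences of the members were 0.39 ± 0.09 (SE, adjusted p = 0.363) for Serpinb9d, 0.32 ± 0.08 (SE, adjusted p = 0.363) for Serpinb9c and 0.30 ± 0.11 (SE, adjusted p = 0.431) for Serpinb9g. The KO libraries of these 3 were wholly above the WT libraries, where 8.11% of all genes were, and each gave an exact permutation p of 0.1, the smallest that 3 against 3 allows. At an unadjusted p under 0.05 edgeR had these 3 members, beside 5.49% of all genes higher. Serpinb9 differed by 0.15 ± 0.09 (SE, adjusted p = 0.508), with a 95% interval of -0.05 to 0.35, and Serpinb9e by 0.05 ± 0.14 (SE, adjusted p = 0.899), with an interval of -0.29 to 0.38. Spongiotrophoblast and glycogen cell markers summed to 46693 to 50809 CPM in KO and 27783 to 38942 in WT at this stage, and trophoblast giant cell markers to 24958 to 29156 and 16640.1 to 23769. Labyrinth trophoblast markers summed to 382 to 589 CPM in KO and 597 to 702 in WT. NK cell markers summed to 155 to 161 CPM in KO and 125 to 150.0 in WT, and to 2.14 to 2.34 and 2.15 to 2.97 without Il2rb and Itga2. None of these marker genes was called between KO and WT at this stage, beside 0.00586% of all genes. The part of these cells in these values was not tested.

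At gd19.5 the members stood below WT. Serpinb9d differed by -0.52 ± 0.10 (SE, adjusted p = 0.118), Serpinb9e by -0.42 ± 0.13 (SE, adjusted p = 0.225), Serpinb9 by -0.39 ± 0.10 (SE, adjusted p = 0.187) and Serpinb9b by -0.34 ± 0.11 (SE, adjusted p = 0.239). In these 4 the KO libraries were wholly below the WT libraries, where 8.58% of all genes were, each with an exact permutation p of 0.1, the smallest possible here. Serpinb9f, Serpinb9g and Serpinb9c differed by -0.35, -0.32 and -0.31 and overlapped. At an unadjusted p under 0.05 edgeR had 6 of 7 lower, beside 7.08% of all genes, and 0 of 7 passed the adjusted p, beside 0.115%. With no filter on low counts all 7 passed the adjusted p, beside 0.929% of all genes passing and lower in that fit. In DESeq2 Serpinb9d did (adjusted p = 0.0015), beside 0.507%, and none of these differences was large enough for a call. Decidua markers, of which 6 were tested with a median log2 difference of 0.01 and none called, summed to 1827 to 2166 CPM in KO and 2375 to 3640.3 in WT, and dendritic cell and macrophage markers to 995 to 1052 and 841 to 950.5. Their part was not tested.

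**Figure D5:**
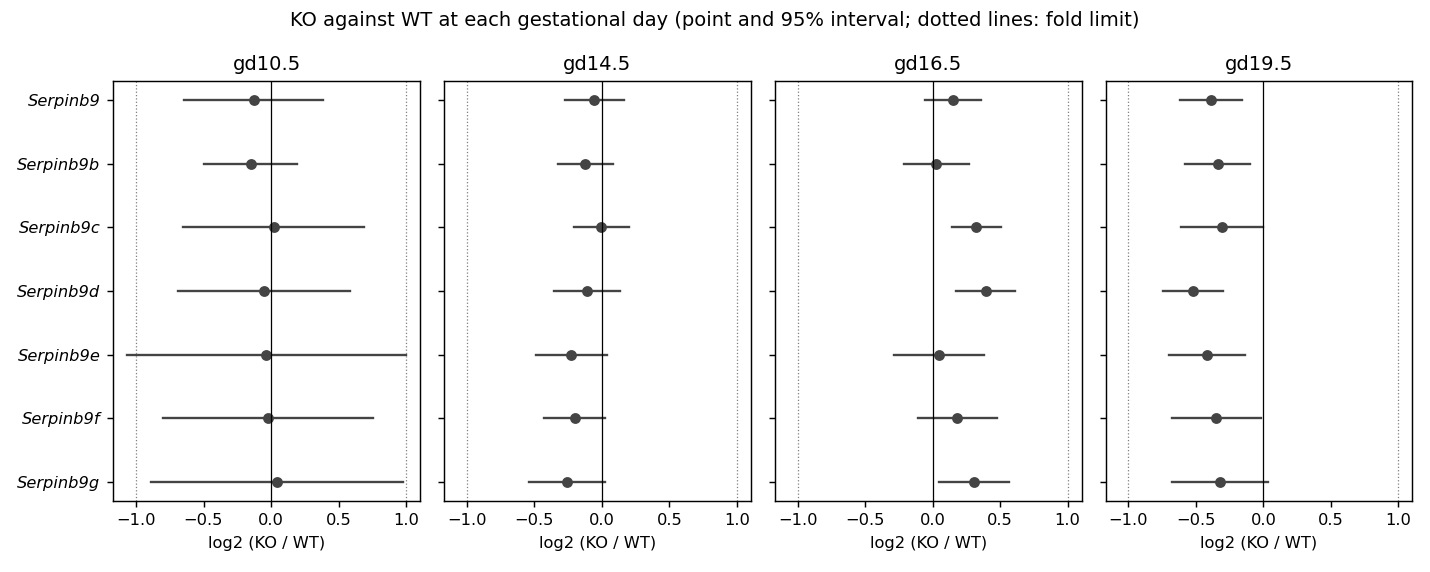
Log2 fold change of KO over WT for each member at the 4 stages, with 95% confidence intervals of the edgeR fit. The 7 values lie between 0.03 and 0.39 at gd16.5 and between -0.52 and -0.31 at gd19.5, and none was called at any stage.

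Whether the KO effect differed between stages was tested directly. The interaction of genotype and stage over 24 libraries gave adjusted p-values of 0.662, for Serpinb9d, to 0.931 among the members, with 0 of 7 called beside 0% of 19299 genes (1396 genes, or 7.23%, and 1 member, Serpinb9d, had an unadjusted p under 0.05, and DESeq2 called 31 genes and 0 members). These adjusted p-values were 0.234 to 0.666 without KO replicate 2 of gd10.5. The difference of the KO effect between gd19.5 and gd16.5, a test added after the data were seen, was below 0 for all 7, from -0.88 ± 0.26 (SE) for Serpinb9d to -0.33 for Serpinb9b. No gene passed the adjusted p there, and Serpinb9d had an adjusted p of 0.204. At an unadjusted p under 0.05 there were 3 members, Serpinb9d, Serpinb9c (-0.59) and Serpinb9 (-0.50), beside 6.25% of all genes lower.

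Relative to Gzmb, all 7 members were higher in KO at gd16.5, by log2 differences of 1.59 to 1.95, beside 96.9% of all genes called higher. The members' share is near that background. At the other stages 0 of 7 were called relative to Gzmb, with differences of 0.24 to 0.92 at gd10.5 beside 0.149% of all genes, -0.22 to 0.09 at gd14.5 beside 0.0222%, and 0.03 to 0.22 at gd19.5 beside 2.6%. Without KO replicate 2 the gd10.5 differences were -1.03 to -0.24, all of the opposite sign.

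Of the other genes of the granule pathway, most fell with Gzmb over the first step and fewer later. A list of 16 genes of granzymes, perforin, granule proteins and textbook granzyme B substrates had 14 tested beside Gzmb. In WT 10 of these were called lower (among them Gzma, Gzmc and Prf1) and 1 higher (Gzmm, granzyme M, at 1.64) from gd10.5 to gd14.5, with a median log2 change of -1.96 against -0.01 for all genes. In the next 2 WT steps 7 and 6 of the 14 were called lower, with medians of -0.87 and -0.85. Over these steps 5.6 and 2.14% of all genes were called in either direction. In KO 10 were lower and Gzmm higher (1.26), then 7 were lower, then 0 were called, with medians of -1.92, -1.64 and -0.09. Of all genes, 18.7, 7.53 and 0.693% were called over these KO steps. Without KO replicate 2 of gd10.5, 11 of 15 were lower over the first KO step and Gzmm was higher (1.73). The medians of the Serpinb9 family over the same WT steps were 0.23, -0.81 and -0.01. The RNA of granzyme M, the target of Serpinb9b, thus rose over the step in which Serpinb9b had no detectable change. In WT 22.2% of all genes were called over that step. The level of Gzmm was low, at 1.23, 2.97 and 1.52 CPM in the KO libraries of gd10.5, where Serpinb9b held 586, 547 and 542.

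The other clade B serpins, a list of 20 genes of which 9 were tested in WT and 10 in KO, did not share one course. Their median log2 changes were -0.58, 0.03 and 0.29 over the WT steps. In WT 4 were called lower at gd14.5 than at gd10.5 (Serpinb1a -1.31, Serpinb6a -1.02, Serpinb8 -1.72 and Serpinb11 -3.62). Over that step 22.2% of all genes were called in either direction. Serpinb1a was called higher at gd16.5 (2.00), beside 5.6% of all genes, and Serpinb6c (1.34) and Serpinb8 (1.12) at gd19.5, beside 2.14%. Serpinb1a is known as an inhibitor of neutrophil serine proteases. In KO Serpinb8 (-1.18) and Serpinb11 (-4.61) were lower at gd14.5 (4 without KO replicate 2 of gd10.5, with Serpinb1a and Serpinb6a added), Serpinb1a (2.12) and Serpinb6c (1.39) higher at gd16.5, and Serpinb6c (1.08) higher at gd19.5. Of all genes, 18.7, 7.53 and 0.693% were called over the KO steps. None of the list was called between KO and WT at any stage, where 7 to 9 were tested, beside at most 0.023% of all genes.

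The members' courses were also compared with each other and with all 19298 other genes, by Pearson's r of mean log2 CPM over the 8 groups. These are descriptions of 8 points that share stage, scaling and libraries, and some members also share stretches of transcript sequence. The part of shared sequence in r was not tested. Serpinb9 and Serpinb9b were most like Gzmb among the members, at r = 0.933 and 0.918, and like each other at 0.933. Serpinb9f, Serpinb9e, Serpinb9d, Serpinb9g and Serpinb9c had r = 0.742, 0.668, 0.595, 0.270 and 0.177 with Gzmb. The closest pair of members was Serpinb9e and Serpinb9f, at 0.978, and the least alike were Serpinb9 and Serpinb9c, at 0.152. Without KO replicate 2 of gd10.5 these last values were 0.982 and -0.04. The r with Gzmb was then 0.943 for Serpinb9, 0.909 for Serpinb9b, 0.542 for Serpinb9f, 0.511 for Serpinb9e, 0.463 for Serpinb9d, -0.02 for Serpinb9g and 0.01 for Serpinb9c. With all libraries, the genes whose course was nearest were Ap5m1, Dennd4b and Gm10709 for Serpinb9 (r = 0.996, 0.992 and 0.991) and Ccnc, Zfp111 and Gm10080 for Serpinb9b (0.990, 0.988 and 0.987). For Serpinb9c they were Efcab8, Amz1 and Rmi1 (0.999, 0.987 and 0.984), and for Serpinb9d Ppcdc, Srp9 and Riok1 (0.974, 0.966 and 0.963). For Serpinb9e they were AI427809, Lgals1 and Gm7809 (0.996, 0.991 and 0.990), and for Serpinb9f AI427809, Zdhhc2 and Atp2c2 (0.988, 0.987 and 0.985). For Serpinb9g they were Rars2, Prss52 and Gm14275 (0.993, 0.980 and 0.966). AI427809 was thus first for both Serpinb9e and Serpinb9f.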

How the data were processed

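Poly(A) RNA of 24 MFI libraries was sequenced as 150 bp paired-end reads from a stranded kit. Per the labels and the study's methods the authors trimmed reads with Trim Galore 0.6.4, aligned them to GRCm38 with STAR 2.7.3a and counted them on genes with featureCounts of Subread 2.0.0. The authors deposited raw read counts, whole numbers with no normalization, with a gene length column. Default counting ignores strand and drops reads with more than a single mapping place.

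Libraries were grouped by genotype and stage from their labels. KO replicate numbers are those of the label descriptions, which differ from those of the titles. The members and the gene lists were chosen with earlier results of these data known. The test was edgeR's quasi-likelihood test (edgeR 4.0.16, R 4.3.3) on counts with TMM scaling (filterByExpr with a minimum count of 10 and a minimum total of 15), with p-values adjusted by Benjamini-Hochberg over all genes of each fit. KO was compared with WT in the 6 libraries of a stage, stages in the 12 libraries of a genotype, and the interaction over 24. For changes relative to Gzmb the offset was the log of the Gzmb count plus 0.5. CPM were taken on TMM library sizes. A prior count of 2 was added for log2 CPM. Exact permutation tests were two-sided. Intervals are 95% and cover the fit only. Libraries of one group were further apart than counting error alone would put them (chi-square per degree of freedom 7.86 to 169 over 24 pairs). Named are all members, Gzmb, C1qtnf6, Prf1, called genes of the 2 lists and, for each member, the 3 genes of the most similar course. Sequences were compared with BLAST 2.17.0 and Biopython 1.88 in Python 3.11.15. The fits were tested on simulated counts. The alternatives were RLE size factors, no filter on low counts, one fit of 24 libraries, DESeq2 1.42.0, a replicate block, each library left out in turn, 5 added to Gzmb, CPM on total counts and exon lengths of the reference annotation. A call without a fold limit, the difference of the KO effect between stages and a test on residual degrees of freedom alone were added after the data were seen. Numbers shared by WT and KO libraries were treated as names only. The deviations of the 12 same-numbered pairs correlated between -0.455 and 0.406. With 3 libraries per group these correlations cannot show whether same-numbered libraries share a batch.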

Additional observations from a re-analysis of the deposited data

Results flagged for a closer look

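Serpinb9d was the member whose KO libraries lay on opposite sides of WT at neighbouring stages. Its KO minus WT log2 difference was 0.39 at gd16.5, where all 3 KO values exceeded all 3 WT values, and -0.52 at gd19.5, where all 3 KO values were below all 3 WT values. The change between these effects was -0.88 in the edgeR fit of 24 libraries, with an adjusted p of 0.204, so it did not pass the test.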

How the results depend on the processing

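No alternative or omitted library gave a call of any member between KO and WT (except relative to Gzmb at gd16.5, where 7 were called in each), in the interaction or in the differences of the KO effect. At gd19.5, however, with no fold limit, the members past the adjusted p went from 0 to 7 with no filter on low counts, to 1 (Serpinb9d) in DESeq2 and to 1 (Serpinb9d) with the replicate block. Whether the replicate numbers pair the libraries is not given in the labels. The replicate block also took the members called in KO to 0 for the step to gd16.5 and 0 for the step to gd19.5. Those past the adjusted p went to 1 and 0. Dropping the fold limit gave 4, 7, 2 and 2 members in place of 0, 2, 0 and 1 for the steps to gd14.5 and gd16.5 in WT and then in KO. For the KO step to gd19.5, 2 members passed the adjusted p in one fit of 24 libraries and 2 in DESeq2, against 1. For the WT step to gd19.5, 1 did with no filter, against 0. Except where given above, the shares of all genes under these alternatives are not given here. The shifts are thus not shown to be particular to the members, and their cause was not tested.

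With 1 library left out at a time, the members called ranged from 1 to 2 for the WT step to gd16.5, 0 to 3 for the KO step to gd14.5 (3 without KO gd10.5 replicate 2), 0 to 1 for the KO step to gd16.5 (1 only without KO gd16.5 replicate 3) and 0 to 0 for the KO step to gd19.5. Those past the adjusted p ranged from 0 to 5 for KO gd14.5, 1 to 2 for KO gd16.5 and 0 to 0 for KO gd19.5. Relative to Gzmb, calls ranged from 0 to 2 for WT gd16.5 and 3 to 6 for WT gd19.5 (3 without WT gd19.5 replicate 3). Except where given above, the shares of all genes with a library left out are not given here. Small log2 changes that took the other sign without some library were, with their lowest and highest values, KO against WT at gd16.5 for Serpinb9b (-0.042 to 0.10) and Serpinb9e (-0.10 to 0.15), the WT step to gd19.5 for Serpinb9b (-0.0060 to 0.20) and Serpinb9f (-0.20 to 0.14), Serpinb9e relative to Gzmb at WT gd16.5 (-0.066 to 0.11), the KO step to gd14.5 for Serpinb9d (-0.20 to 0.32) and Serpinb9f (-0.21 to 0.52), and the KO step to gd16.5 for Serpinb9d (-0.14 to 0.086). The test on residual degrees of freedom alone gave the same number of calls in all 10 comparisons relative to Gzmb. CPM on total counts moved 10 of 56 group means by more than 1 SD. Only 3 libraries per group limit what differences can be detected.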
